A study of Mus musculus with 16 samples.

Results

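The polyamine metabolism genes described here are Odc1, Amd1, Srm, Sms, Azin1, Oaz1, Oaz2, Sat1 and Smox, 9 of the 46983 genes in the deposited count table. They were taken by symbol and function, as enzymes that make and break down polyamines and proteins that set the activity of ornithine decarboxylase. No measured value entered the rule, though earlier results of these data were known when it was set. All 9 passed the filter on low counts that left 12805 genes for testing. RNA-seq counts came from 46C mouse embryonic stem cells (ESCs), an established line from 129Ola mice that carries GFP at the Sox1 locus, grown with LIF, transfected with an siRNA against RAM or with a non-targeting siRNA (control) and lysed 48 hr later. RAM, encoded by Ramac, is the activating subunit of the mRNA cap methyltransferase RNMT. Each siRNA had 4 replicate cultures, and each culture gave a library of the cytoplasmic lysate (input, 10% of the extract) and a library of pooled sucrose gradient fractions 17 to 22 (polysomes), so that the 4 groups hold 16 libraries. All cultures were treated with cycloheximide before lysis, and all results are from this single cell line.

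Putrescine, spermidine and spermine are small polycations that bind nucleic acids and ribosomes, and dividing cells keep high pools of them. Ornithine decarboxylase (ODC, Odc1) makes putrescine, S-adenosylmethionine decarboxylase (Amd1) provides the aminopropyl donor, and spermidine synthase (Srm) and spermine synthase (Sms) add aminopropyl groups. The pathway is held in balance largely after transcription. Antizymes (Oaz1, Oaz2) bind ODC and carry it to the proteasome, and their complete reading frame is made only when ribosomes shift frame at a stop codon, an event that polyamines favour. The antizyme inhibitor (Azin1), an ODC relative without decarboxylase activity, binds antizyme and releases ODC. Spermidine/spermine acetyltransferase (Sat1) and spermine oxidase (Smox) break polyamines down. Amd1 is also known for a part in the self-renewal of mouse ESCs.

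The libraries held between 16647523 and 20147833 counts. Ramac, the targeted gene, had between 197 and 206 counts in control input libraries and between 46 and 58 in RAM siRNA input libraries, and between 122 and 256 against between 5 and 45 in polysomes, with no overlap in either fraction. The 7 ESC markers examined (Pou5f1, Nanog, Sox2, Klf4, Zfp42, Esrrb and Tfcp2l1) summed to between 2190 and 2373 CPM in control input libraries and between 1933 and 2058 in RAM siRNA input libraries, so the cells carried the markers of their label in all of them and at a lower summed level after RAM siRNA. In input the 4 endoderm markers summed to between 3.60 and 4.90 CPM in control libraries and between 5.57 and 6.85 CPM in RAM siRNA libraries. The sums of the 4 neural markers overlapped, at between 71.6 and 83.6 CPM and between 77.7 and 91.9 CPM, with Nes at a mean of 27.7 against 37.3 CPM after RAM siRNA and Pax6 at 12.4 against 8.78 CPM. The part of these marker values in the results below was not tested. CPM are counts scaled to a common library size by TMM, so they give the share of a transcript in its library and not its amount per cell, and in bulk RNA fewer cells of a kind and less RNA per cell cannot be told apart. Polysome libraries varied more than input libraries. The polysome libraries of replicate 4, and replicate 2 after RAM siRNA, stood apart for these genes: 8 of the 9 genes had their highest control polysome value in replicate 4, against 32.8% of all tested genes, and 9 of the 9 had their highest RAM siRNA polysome value there, against 34.4% of all tested genes. In the RAM siRNA polysome library of replicate 2, 8 of the 9 had their lowest value of that group, against 38.7% of all tested genes. Replicate 4 was also the highest input library for 7 of the 9 after RAM siRNA, against 37.0% of all tested genes. In control input it was the highest for 5 of the 9, against 32.1%.

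Sequences that are known to hold translation of 3 of these mRNAs under polyamine control were read from the GENCODE M21 transcripts (GRCm38), and are shown because the polysome values of the same mRNAs are given below. The first pair is the frameshift site of the antizyme mRNAs, in their coding exons, where the capitals mark the last in-frame codon and the stop codon at which ribosomes shift. The second pair is the first upstream open reading frame in the 5′ UTR of Amd1 and of its near copy Amd2, with the start and stop codons in capitals.
Oaz1, chr10:80828280-80828309, + strand: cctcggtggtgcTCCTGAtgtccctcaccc
Oaz2, chr9:65686257-65686286, + strand: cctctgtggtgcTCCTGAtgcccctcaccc
Amd1, chr10:40302155-40302175, - strand: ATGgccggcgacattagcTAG
Amd2, chr10:35711860-35711880, - strand: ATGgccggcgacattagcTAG
The Oaz1 and Oaz2 windows had 28 of 30 bases in common, with the same 6 bases at the shift site, and the 21 bases of the upstream reading frame were the same in Amd1 and Amd2.

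Ornithine decarboxylase dominated the pathway at the transcript level. Per kilobase of exon of the coding transcripts, in control input, Odc1 stood at 401 ± 32.9 CPM (mean ± SD, n = 4 libraries here and below), Oaz1 at 114 ± 6.92, Sat1 at 42.1 ± 3.42, Srm at 41.9 ± 2.68, Azin1 at 29.8 ± 1.04, Amd1 at 28.1 ± 2.83, Oaz2 at 16.5 ± 0.942, Sms at 15.6 ± 1.32 and Smox at 2.62 ± 0.348. Sat1 and Srm overlapped in this order, as did Azin1 and Amd1, and Oaz2 and Sms, while the other neighbours did not. The rank of Sat1 depended on the gene model: over the exons of all transcripts, Sat1 was at 18.0 CPM per kilobase, below Srm, Amd1 and Azin1. In control polysomes, Odc1 was first at 639.6 ± 123 CPM per kilobase, Srm was second at 90.0 ± 26.3, and Oaz1 was at 36.4 ± 12.4.

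In control cells the mRNAs of polyamine metabolism differed widely in their polysome to input ratio. Srm and Odc1, which encode enzymes of synthesis, were enriched in polysomes. Sms, Azin1 and Smox had overlapping shares in both fractions, Amd1 was depleted, and Oaz1, Oaz2 and Sat1 were the most depleted, at less than a ratio of 0.5 in every control culture. The ratio of CPM in polysomes to CPM in input was taken per culture, and a ratio of 1 means an equal share of both libraries. The polysome fractions are compared with a lysate that contains them, so the ratio is not an amount of ribosomes per mRNA. The genes are taken in the order of their roles.

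Odc1 (ENSMUSG00000011179, chr12:17544794-17551505) stood at 869.7, 822, 862 and 991 CPM in control input (replicates 1 to 4) and at 1380.4, 1103, 1400.4 and 1765 CPM in control polysomes. Every polysome value lay above every input value. Its ratio was 1.58 ± 0.182, and the log2 fold change of polysome against input was 0.67 (SE 0.16, adjusted p = 0.00256 by edgeR's quasi-likelihood test). Srm (ENSMUSG00000006442, chr4:148591503-148594993), whose enzyme makes spermidine, stood at 54.7, 54.2, 53.8 and 61.3 CPM in control input and at 101, 91.4, 119 and 170.3 CPM in control polysomes. Its fractions did not overlap either, and at 2.13 ± 0.483 it had the highest mean ratio of the 9 genes, with a log2 fold change of 1.10 (SE 0.18, adjusted p = 0.000201 by edgeR's quasi-likelihood test). The ratios of Srm and Odc1 overlapped between cultures. Sms (ENSMUSG00000071708, chrX:157443855-157492287), whose enzyme makes spermine, was at 61.1, 50.8, 60.8 and 59.8 CPM in input and at 59.5, 50.8, 54.1 and 73.2 CPM in polysomes. These ranges overlapped, and the log2 fold change was 0.03 (SE 0.13, adjusted p = 0.846 by edgeR's quasi-likelihood test).

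Amd1 (ENSMUSG00000075232, chr10:40287458-40302186), the other decarboxylase of the pathway and the mRNA with the upstream reading frame shown above, was at 90.0, 89.1, 79.4 and 102 CPM in control input and at 60.0, 50.1, 52.8 and 69.9 CPM in control polysomes. All polysome values were below all input values. The ratio was 0.646 ± 0.0566, the smallest SD of the 9 genes, and the log2 fold change was -0.63 (SE 0.13, adjusted p = 0.00139 by edgeR's quasi-likelihood test). Amd1 and Odc1, which feed the same reactions, lay on opposite sides of a ratio of 1. Amd2, nearly identical in sequence, had a mean of 3.09 ± 0.284 CPM in control input and a log2 fold change of -0.81 (SE 0.21, adjusted p = 0.00514 by edgeR's quasi-likelihood test), and the share of its reads that came from Amd1 cannot be told.

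Among the regulators of ODC, the inhibitor and its targets differed. Azin1 (ENSMUSG00000037458, chr15:38487427-38519266) was at 154, 145, 145 and 155 CPM in control input and at 163, 123, 115 and 139 CPM in control polysomes. Its fractions overlapped, its ratio was 0.900 ± 0.115 and its log2 fold change was -0.15 (SE 0.13, adjusted p = 0.322 by edgeR's quasi-likelihood test). Oaz1 (ENSMUSG00000035242, chr10:80826656-80829290) was at 118, 122, 116 and 133 CPM in control input and at 34.3, 28.9, 34.5 and 58.7 CPM in control polysomes. Every polysome library was far below every input library, with a ratio of 0.316 ± 0.0882 and a log2 fold change of -1.65 (SE 0.20, adjusted p = 2.10e-05 by edgeR's quasi-likelihood test). Oaz2 (ENSMUSG00000040652, chr9:65668001-65690300), lower in abundance, was at 32.6, 36.0, 31.6 and 34.3 CPM in input and at 11.9, 10.2, 7.28 and 12.3 CPM in polysomes. It had nearly the same ratio as Oaz1, 0.309 ± 0.0643, and a log2 fold change of -1.69 (SE 0.16, adjusted p = 3.96e-06 by edgeR's quasi-likelihood test). The ratios of the antizyme mRNAs, which carry the same shift site, overlapped.

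Of the catabolic enzymes, Sat1 (ENSMUSG00000025283, chrX:155213132-155216449), which acetylates spermidine and spermine, was at 50.5, 48.6, 55.0 and 45.3 CPM in control input and at 13.3, 10.8, 15.96 and 20.9 CPM in control polysomes. The fractions did not overlap, the ratio was 0.309 ± 0.105 and the log2 fold change was -1.71 (SE 0.18, adjusted p = 8.85e-06 by edgeR's quasi-likelihood test). Smox (ENSMUSG00000027333, chr2:131491496-131525922), which oxidises spermine, was the least abundant, at 8.62, 9.43, 7.23 and 7.26 CPM in input and at 6.50, 6.14, 5.47 and 7.73 CPM in polysomes, from between 97 and 188 counts per library. Its ranges overlapped, with a ratio of 0.807 ± 0.179 and a log2 fold change of -0.33 (SE 0.16, adjusted p = 0.0794 by edgeR's quasi-likelihood test). Without polysome replicate 4 of the control cells this became -0.43 (adjusted p = 0.0244 by edgeR's quasi-likelihood test), where 4398 of 12805 tested genes were lower and 4497 higher. The library left out had the highest Smox value of its group, within the input range, so this fit is not separate support.

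In all, 2 of the 9 genes were higher and 4 lower in control polysomes, where 34.4% of all tested genes were higher and 33.0% lower by the same rule, so the number of calls is near the background. Of the 9, 2 had polysome values wholly above the input values and 4 wholly below, against 30.7% and 30.4% of all tested genes. The median log2 fold change of the 9 genes was -0.33, beside 0.03 over all tested genes. In the order of the mean ratios (Srm, Odc1, Sms, Azin1, Smox, Amd1, Oaz1, Sat1, Oaz2), the neighbours whose 4 culture ratios did not overlap were Odc1 and Sms, and Amd1 and Oaz1. Over all tested genes, 91.8% had a lower log2 fold change than Srm and 76.1% a lower one than Odc1, while 6.87% were lower than Oaz1, 6.39% lower than Oaz2 and 6.19% lower than Sat1.

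**Figure D1:**
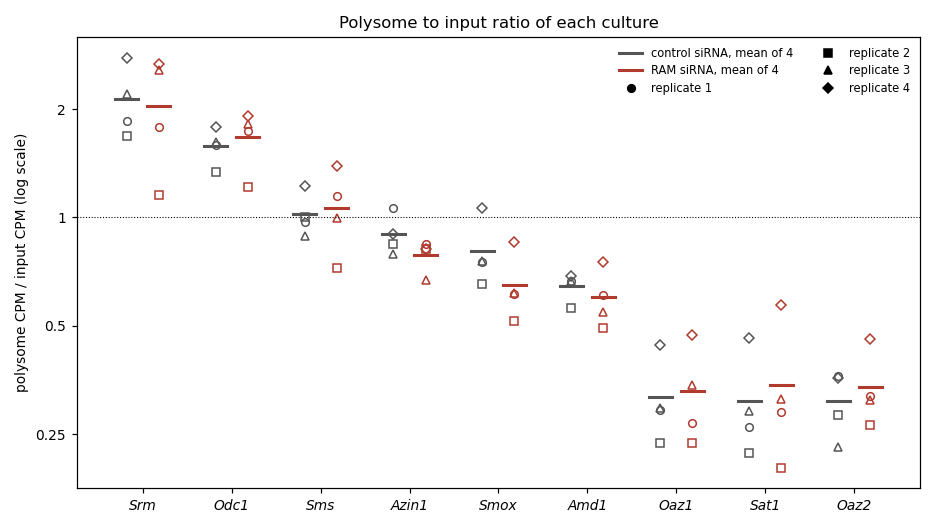
CPM in polysomes divided by CPM in input of the same culture (y axis, log scale) for each gene, ordered by the control mean; each marker is 1 culture, its shape gives the replicate number, and the horizontal strokes are means of 4. Srm and Odc1 lie above 1 in every culture, Oaz1, Sat1 and Oaz2 at or below 0.571 in every culture, and the control and RAM siRNA cultures overlap for each gene.

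The 3 most depleted mRNAs also had the shortest coding sequences of the 9. The longest coding transcript in GENCODE had 534 coding bases for Sat1, 567 for Oaz2 and 681 for Oaz1, against 906 for Srm, 1002 for Amd1, 1098 for Sms, 1344 for Azin1, 1383 for Odc1 and 1755 for Smox. The median of 12125 tested genes with a coding length was 1425. A short coding sequence holds fewer ribosomes, and only dense gradient fractions were sequenced. Across those genes, which share the libraries and are not independent replicates, coding length and the control log2 fold change had a Spearman correlation of -0.17, and the median log2 fold change was 0.04 for coding lengths of 63 to 891 bases, 0.45 for 894 to 1425, 0.15 for 1428 to 2271 and -0.36 for 2274 to 105639, 4 bins of about equal gene number. The log2 fold changes of Oaz1, Oaz2 and Sat1, at -1.65, -1.69 and -1.71, all lay below the median of their bin. That bin is wide, and the part of coding length in their ratios was not tested.

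**Figure D2:**
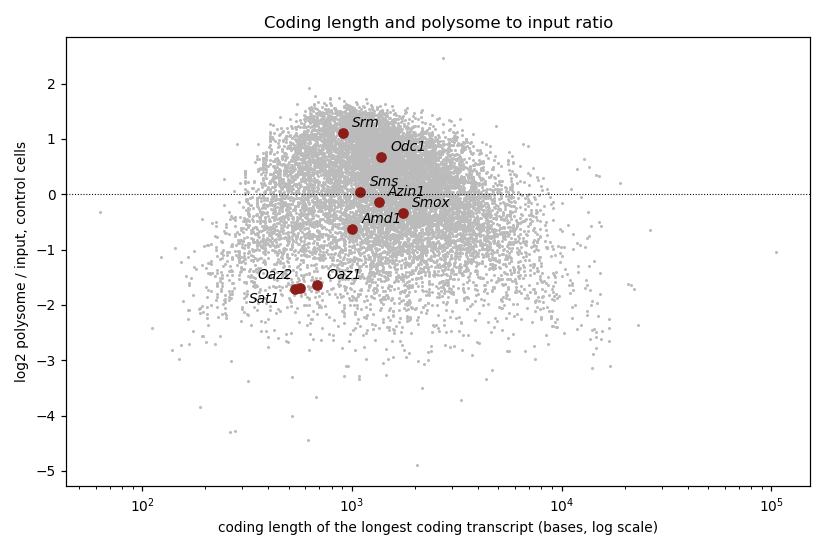
Coding length of the longest coding transcript (x axis, bases, log scale) against the log2 fold change of polysome against input in control cells (y axis) for 12125 tested genes in grey and the 9 polyamine genes in red. Oaz1, Oaz2 and Sat1 sit together at coding lengths from 534 to 681 and log2 values from -1.71 to -1.65, and Srm at 906 bases lies well above 0.

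By the test used for all genes, without pairing of replicates, 1 of the 9 genes was called in input: Oaz1 was higher after RAM siRNA. With the replicate number as a factor 5 were called, as given below. Oaz1 stood at 118, 122, 116 and 133 CPM in control input and at 151, 151, 142 and 167 CPM after RAM siRNA. Every RAM siRNA library was above every control library, and the same-numbered libraries differed by between 0.29 and 0.36 on the log2 scale. The log2 fold change was 0.32 (SE 0.08, adjusted p = 0.0146 by edgeR's quasi-likelihood test), where 7.14% of all tested genes were higher and 5.81% lower by the same rule. The number of calls, 1 of 9, is thus near the background. Of the 9 genes, Oaz1 was the 1 whose input groups did not overlap, against 9.39% of all tested genes with a higher and 8.62% with a lower RAM siRNA group. The Oaz1 call was lost without control replicate 1 (adjusted p = 0.0774) or without control replicate 2 (adjusted p = 0.0621 by edgeR's quasi-likelihood test). Its processed pseudogene Oaz1-ps, which shares 624 stretches of 31 bases with it, had between 34 and 68 counts in input libraries, against between 2126 and 2960 for Oaz1.

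Since libraries with the same replicate number deviated together, the comparison was repeated with the replicate number as a factor (replicate block), and 5 of the 9 genes then passed: Amd1, Oaz1 and Oaz2 as higher, where 20.6% of all tested genes were higher, and Odc1 and Sat1 as lower, where 18.7% were lower. Odc1 was at 869.7, 822, 862 and 991 CPM in control input and at 668, 671, 686 and 864 CPM after RAM siRNA. It was lower in each of the 4 same-numbered pairs, by between -0.38 and -0.20 on the log2 scale, but the groups overlapped, since replicate 4 after RAM siRNA lay above control replicates 2 and 3. The log2 fold change of Odc1 was -0.29 (SE 0.10, adjusted p = 0.0734 by edgeR's quasi-likelihood test) without the block and -0.30 (SE 0.04, adjusted p = 1.52e-05) with it. Without RAM siRNA replicate 4 it was -0.42 (adjusted p = 0.00288 by edgeR's quasi-likelihood test), where 1393 of 12805 tested genes were lower and 1220 higher. Since that library lay within the control range of Odc1, this fit is not separate support.

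Amd1, which supplies the aminopropyl donor, was at 98.3, 104, 98.2 and 118 CPM in input after RAM siRNA, higher in 4 of 4 pairs than the control values given above, with overlapping groups. Its log2 fold change was 0.22 (SE 0.09, adjusted p = 0.129 by edgeR's quasi-likelihood test), and with the replicate block the adjusted p was 0.000563. The decarboxylases of the pathway had log2 changes of opposite sign in input in each of the 4 pairs. Srm was at 57.7, 54.8, 50.4 and 65.7 CPM and Sms at 56.2, 53.4, 58.1 and 62.1 CPM after RAM siRNA. Neither synthase was called with or without the block, at log2 fold changes of 0.03 (SE 0.09, adjusted p = 0.865) and -0.02 (SE 0.08, adjusted p = 0.914 by edgeR's quasi-likelihood test).

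Of the other regulators, Azin1 was at 141, 131, 138 and 148 CPM in input after RAM siRNA, lower in 4 of 4 pairs with a log2 fold change of -0.10 (SE 0.07, adjusted p = 0.359 without and 0.0578 with the replicate block by edgeR's quasi-likelihood test). Oaz2 was at 36.1, 38.7, 34.0 and 44.5 CPM, higher in 4 of 4 pairs, with a log2 fold change of 0.19 (SE 0.09, adjusted p = 0.197 without and 0.0142 with the block by edgeR's quasi-likelihood test). The direction of Oaz2 was that of Oaz1, and Azin1 had the direction of Odc1, though neither Oaz2 nor Azin1 was called without the block. Pairs of the same sign were not counted over all tested genes. Sat1 was at 40.5, 42.0, 52.0 and 38.2 CPM, lower in 4 of 4 pairs, with a log2 fold change of -0.21 (SE 0.10, adjusted p = 0.196 without and 0.00257 with the block by edgeR's quasi-likelihood test). Without RAM siRNA replicate 3, the highest of its group, Sat1 was at -0.33 (adjusted p = 0.0302 by edgeR's quasi-likelihood test), where 661 of 12805 tested genes were lower and 637 higher. That library lay within the control range, so the fit without it is not separate support. Smox was at 8.63, 9.45, 9.50 and 8.32 CPM, also higher in 4 of 4 pairs. Its log2 fold change of 0.14 (SE 0.12) was not called without or with the block (adjusted p = 0.483 and 0.261 by edgeR's quasi-likelihood test). The median log2 fold change of the 9 genes in input was 0.03, beside 0.00308 over all tested genes.

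**Figure D3:**
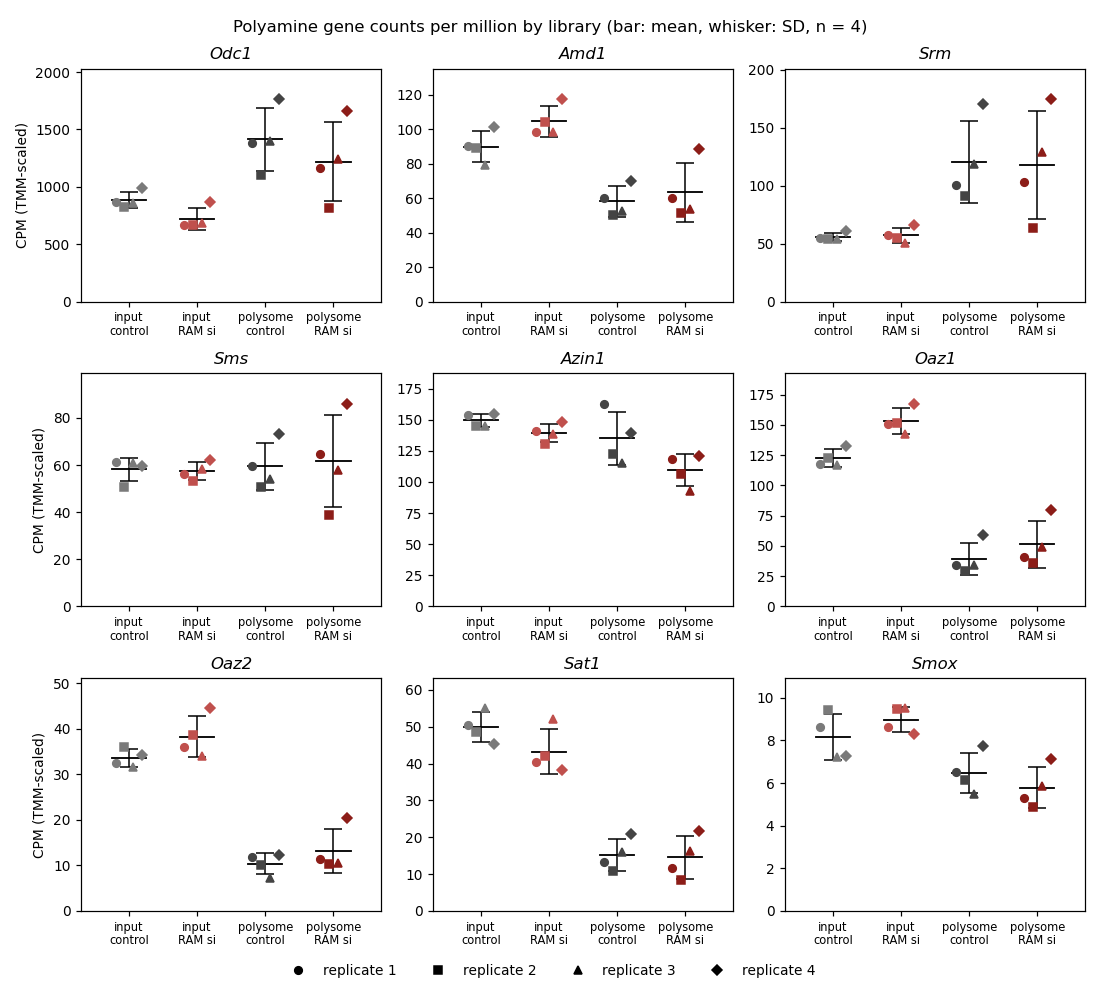
CPM of each gene in each library (y axis, from 0, each panel on its own scale) by group; markers are libraries with the replicate number as shape, strokes are means and whiskers SD of 4 libraries. In input, the 4 Oaz1 values after RAM siRNA lie above the 4 control values; the other genes overlap between siRNAs, and replicate 4 (diamonds) is the highest polysome library in 8 of 9 control panels and 9 of 9 RAM siRNA panels.

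Ratios between genes within a library do not depend on its scaling, and were taken after the values above had been seen. There were 7.39, 6.71, 7.41 and 7.46 counts of Odc1 for each count of Oaz1 in control input and 4.43, 4.43, 4.81 and 5.16 after RAM siRNA, without overlap. In polysomes the ratio was 37.3 ± 4.94 in control cells and 24.5 ± 3.38 after RAM siRNA, and the groups did not overlap there either, with a lowest control value of 30.1 and a highest RAM siRNA value of 28.7. Counts of Azin1 for each count of Oaz1 went from 1.23 ± 0.0642 to 0.912 ± 0.0483 in input, without overlap. In polysomes they were 3.68 ± 1.05 in control cells and 2.33 ± 0.731 after RAM siRNA, with overlap. Counts of Odc1 for each count of Sat1 in input were 17.9 ± 2.71 and 17.1 ± 3.96, with overlap. Odc1 and Oaz1 had already been seen to go in opposite directions in both fractions, so the gap in their ratio restates those values and is not separate support. How often ratios of other gene pairs do not overlap was not counted. No test was made on these ratios.

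In polysomes, 0 of the 9 genes were called by DESeq2, by limma-voom or, without the block, by edgeR's quasi-likelihood test, and 0 had an unadjusted p under 0.05 in any of these. By the last of these 0.0234% of all tested genes were lower and 0% higher, and by DESeq2 1.12% and 1.22%. Odc1 was at 1162, 818, 1244 and 1658 CPM in polysomes after RAM siRNA, lower in 4 of 4 pairs, with a log2 fold change of -0.21 (SE 0.25, adjusted p = 0.957 by edgeR's quasi-likelihood test). Azin1 was at 118, 106, 92.6 and 121 CPM, also lower in 4 of 4 pairs, with a log2 fold change of -0.30 (SE 0.18, adjusted p = 0.723 without and 0.0830 with the block by edgeR's quasi-likelihood test). Both overlapped with the control values. Oaz1 was at 40.5, 35.9, 48.9 and 79.2 CPM, higher in 4 of 4 pairs with overlapping groups, and its log2 fold change was 0.39 (SE 0.30, adjusted p = 0.857 by edgeR's quasi-likelihood test). With the block it was the 1 gene called, at 0.37 (SE 0.11, adjusted p = 0.0267 by edgeR's quasi-likelihood test), where 8.22% of all tested genes were higher and 7.01% lower. The standard errors here were larger than in input for each gene, between 0.18 and 0.31 against between 0.07 and 0.12.

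The other genes were not called in polysomes with or without the block. Amd1 was at 59.9, 51.5, 53.5 and 88.6 CPM after RAM siRNA (log2 fold change 0.12, SE 0.22) and Oaz2 at 11.5, 10.3, 10.6 and 20.5 CPM (0.34, SE 0.27). In both, replicate 4 was well above the rest. Srm was at 103, 63.4, 129 and 175 CPM (-0.03, SE 0.31) and Sms at 64.6, 38.6, 57.9 and 86.1 CPM (0.06, SE 0.25), with replicate 2 lowest in each. Sat1 was at 11.7, 8.48, 16.3 and 21.8 CPM (-0.06, SE 0.31) and Smox at 5.31, 4.87, 5.86 and 7.12 CPM (-0.16, SE 0.20). The groups overlapped for all 9 genes, where 4.38% of all tested genes were wholly lower and 2.18% wholly higher after RAM siRNA. The median log2 fold change of the 9 genes was -0.03, beside 0.00842 over all tested genes.

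**Figure D4:**
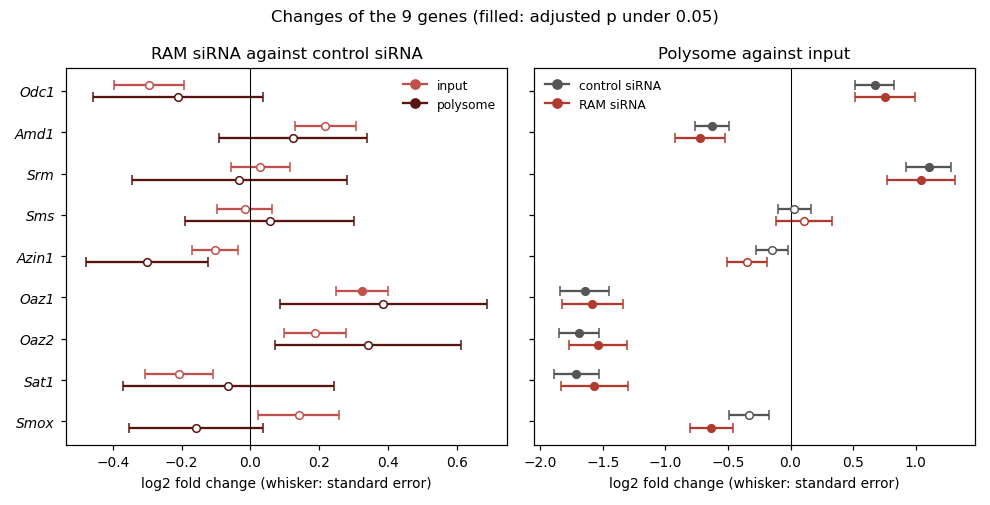
Log2 fold changes (x axis) with standard errors of the 9 genes for RAM siRNA against control in input and in polysomes (left) and for polysome against input in control and in RAM siRNA cells (right); filled points have an adjusted p under 0.05 without the replicate block. On the left only Oaz1 in input is filled, and on the right Srm, Odc1, Amd1, Oaz1, Oaz2 and Sat1 are filled in both kinds of cell.

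The polysome to input ratio was next compared between siRNAs, which asks whether an mRNA moved between fractions relative to other mRNAs, beyond its change in input. Scaling sets all libraries to a common size, so a shift of all mRNAs off polysomes cannot be seen here. The study reported a reduced polysome to monosome ratio after RAM siRNA, measured on the gradients, which these comparisons do not test. It also compared polysome loading relative to input gene by gene, and reported a change for only a small number of genes. The fits below called fewer, and the design of the study's fit is not stated in the sources used here. The comparisons within each siRNA use the same libraries as those above. In RAM siRNA cells, 7 genes were called, Srm and Odc1 as higher in polysomes (27.1% of all tested genes) and Amd1, Oaz1, Oaz2, Sat1 and Smox as lower (26.2%). The mean ratios in RAM siRNA cells were 2.04 ± 0.708 for Srm, 1.67 ± 0.312 for Odc1, 1.06 ± 0.278 for Sms, 0.786 ± 0.0785 for Azin1, 0.651 ± 0.145 for Smox, 0.600 ± 0.112 for Amd1, 0.344 ± 0.159 for Sat1, 0.339 ± 0.0840 for Oaz2 and 0.330 ± 0.105 for Oaz1. All neighbours in this order overlapped. Some of these calls depended on single libraries: Odc1 had an adjusted p of 0.0204, and 0.0633 without RAM siRNA input replicate 1 and 0.0632 without replicate 2, Amd1 had 0.0113, and 0.0538 without input replicate 4, and Smox had 0.0106, and 0.0540 without input replicate 3 (all by edgeR's quasi-likelihood test). Of 16 alternatives, Odc1 was called in 13, Amd1 in 14 and Smox in 13, so these calls were lost in more fits than those named. Srm was called in 15 of 16 alternatives and lost with replicates 1 and 2 only (adjusted p = 0.120), and Azin1 passed by DESeq2 (adjusted p = 0.0463) and with all 16 libraries in one fit (adjusted p = 0.0262 by edgeR's quasi-likelihood test). Polysome replicate 2, at 818 CPM for Odc1 and 63.4 CPM for Srm, lay within the range of the input libraries, so 0 genes of the 9 were wholly higher in polysomes and 6 were wholly lower (Amd1, Azin1, Oaz1, Oaz2, Sat1 and Smox), against 21.4% and 25.2% of all tested genes. The median log2 fold change of the 9 genes was -0.63, beside 0.03 over all tested genes.

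The difference between siRNAs in this ratio was called for 0 of the 9 genes by edgeR's quasi-likelihood test of the interaction, for which 0% of all tested genes were called in either direction and 100 had an unadjusted p under 0.05. With a replicate block fitted within each fraction, 0 of the 9 genes were called, where 0.0156% of all tested genes were lower and 0% higher. Of the 9, 0 had an unadjusted p under 0.05 by that test, DESeq2 or limma-voom, and of all tested genes DESeq2 called 1 and limma-voom 0. The log2 differences were 0.08 for Odc1 (SE 0.28), -0.09 for Amd1 (0.23), -0.06 for Srm (0.34), 0.07 for Sms (0.26), -0.20 for Azin1 (0.18), 0.06 for Oaz1 (0.33), 0.15 for Oaz2 (0.29), 0.14 for Sat1 (0.34) and -0.30 for Smox (0.21). Smox showed the most even change over cultures, lower in 4 of 4 pairs by between -0.34 and -0.29, though its group ranges overlapped and its values rest on between 85 and 188 counts per library. Azin1 was also lower in 4 of 4 pairs, by between -0.33 and -0.05. The standard errors lay between 0.18 and 0.34 here, and between 0.11 and 0.16 with the block within each fraction, where the log2 differences ran from -0.30 for Smox to 0.13 for Oaz2. In the two-sided exact permutation test of 4 against 4, made on input, polysome and ratio values of each gene (27 tests, unadjusted), Oaz1 in input was the 1 value at the smallest p possible, 0.0286, and Odc1, Amd1 and Azin1 in input each gave 0.0857. Groups that do not overlap always give the smallest p, so the Oaz1 value repeats the non-overlap given above and adds no support. The permutation test does not use the replicate numbers.

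Genes around the pathway were examined as a list of 26 that supply precursors, salvage methionine, carry or make hypusine or move polyamines, or are relatives of the 9 genes or other enzymes of polyamine breakdown, of which 21 passed the filter. In input, 2 were higher after RAM siRNA and 0 lower, where 7.14% of all tested genes were called higher and 5.81% lower. At an unadjusted p under 0.05 by edgeR's quasi-likelihood test there were 5 of the 21, of which 0 were lower. Of the 12805 tested genes, 3574 were under it, so the list had no excess. Slc18b1, a vesicular polyamine transporter, had 11.04 ± 0.751 CPM in control and 15.1 ± 1.09 CPM after RAM siRNA, without overlap (log2 fold change 0.45, SE 0.09, adjusted p = 0.0088 by edgeR's quasi-likelihood test). Sat2, a relative of Sat1, was close to the filter, at 0.827 ± 0.341 CPM against 1.55 ± 0.206 CPM after RAM siRNA (0.91, SE 0.28, adjusted p = 0.0487 by edgeR's quasi-likelihood test). It reached 1 CPM in 8 of 8 RAM siRNA libraries and 4 of 8 control libraries, so it passed the filter of 10 libraries mainly where it was high, and its call is not support for a change of the list. With the replicate block 6 were higher, Sat2 included, and 0 lower, where 20.6% of all tested genes were higher and 18.7% lower. The others were Slc3a2, the heavy chain of amino acid exchangers (950.8 ± 64.2 to 1167 ± 117 CPM, 0.29, adjusted p = 2.54e-05), Mat2a, which makes S-adenosylmethionine (422 ± 20.6 to 480.2 ± 17.7 CPM, 0.19, adjusted p = 0.00194), Adi1 of methionine salvage (43.0 ± 5.50 to 51.2 ± 10.6 CPM, 0.24, adjusted p = 0.000784) and Atp13a2, a lysosomal polyamine exporter (98.3 ± 10.99 to 115 ± 10.6 CPM, 0.22, adjusted p = 0.000413, all by edgeR's quasi-likelihood test with the block). The median log2 fold change of the 21 genes was 0.05 in input, beside 0.00308 over all tested genes.

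In polysomes 0 of these 21 genes were called without the block. At an unadjusted p under 0.05 by edgeR's quasi-likelihood test there were 2, against 1148 of the 12805 tested genes. With the block 3 were higher (Slc18b1 at 0.54, Sat2 at 0.87 and Adi1 at 0.40). Sat2 passed the filter mainly in RAM siRNA libraries, as given above, so its call is not support here either. The 1 lower gene with the block was Enoph1 of methionine salvage, from 42.5 ± 7.24 to 31.7 ± 6.73 CPM (-0.43, SE 0.11, adjusted p = 0.0123 by edgeR's quasi-likelihood test with the block). With the block 8.22% of all tested genes were higher and 7.01% lower. The change of the polysome to input ratio by RAM siRNA was called for 0 of the 21 by edgeR's quasi-likelihood test with or without a block. At an unadjusted p under 0.05 there were 0 without the block, 1 with it (Enoph1, -0.31), and 2 with the block within each fraction (Mat2a at -0.39 and Enoph1 at -0.31). Of the 12805 tested genes, 100, 262 and 637 were under it in these fits, and so few genes of the list cannot be told from that background. In control cells, 14 of the 21 were higher in polysomes and 4 lower (Mat2a, Amd2, Eif5a2 and Slc7a1), where 34.4% of all tested genes were higher and 33.0% lower. The median log2 fold change of the 21 was 0.53, beside 0.03 over all tested genes. Eif5a and Eif5a2 were chosen after their values had been seen. Eif5a, the translation factor that carries hypusine made from spermidine, stood at 498 ± 49.8 CPM in control input and 719 ± 256 CPM in control polysomes (0.53, SE 0.21, adjusted p = 0.045 by edgeR's quasi-likelihood test). Its relative Eif5a2 was at 25.5 ± 1.28 and 7.32 ± 1.80 CPM (-1.80, SE 0.16, adjusted p = 3.12e-06 by edgeR's quasi-likelihood test).

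Near copies were looked for because they can share reads with a gene, and the likeness of other genes to Odc1 was ranked. The 3 genes outside the pathway with the pattern most like Odc1 over the 16 libraries, among the 9131 tested genes that averaged 10 CPM or more, were Gmnn (r = 0.988 on log2 CPM), Skp1a (r = 0.987) and Gm7993 (r = 0.986). These are descriptions over libraries that share their fraction and replicate structure. Gmnn, which encodes the replication licensing inhibitor geminin, had 69.2 ± 6.80 CPM in control input against 55.1 ± 7.27 after RAM siRNA, and 138 ± 33.8 against 108 ± 39.2 in polysomes. Skp1a, a subunit of ubiquitin ligases, had 188 ± 15.99 against 162 ± 21.8 CPM in input and 336 ± 68.1 against 305 ± 117 CPM in polysomes. Gm7993 is not an independent likeness. GENCODE lists it as a processed pseudogene, 702 of its 1354 stretches of 31 bases are found in the coding transcripts of Odc1, and it had between 1144 and 1371 counts in control input libraries and between 803 and 1153 after RAM siRNA. Odc1 had 18 such near copies in the table, with between 8.03% and 9.93% of the counts of Odc1 in each library. Over the members, 33 genes of the table shared at least 20 such stretches with Odc1, Amd1, Sms, Oaz1, Oaz2 or Sat1, and adding their counts to their gene moved none of the 36 log2 ratios of group means of the 9 genes by more than 0.0249. Reads that fit a gene and its copy equally may be in neither count, since the settings of the counting are not given. This sum cannot show such reads, and the levels per kilobase given above may lack them. The strand setting of the counting is not given in the sources used here, so reads of Gm49077, antisense to Azin1, cannot be told from those of Azin1, and Odc1 and Oaz1 each overlap a small RNA gene on the same strand (Gm22748 and Mir1982).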

How the data were processed

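RNA was measured in 16 libraries of 46C ESCs, 4 each of input and polysome RNA after control or RAM siRNA. Per the labels and the methods of the study, the authors depleted ribosomal RNA, mapped the reads to GRCm38/mm10 with STAR 2.5.1b and deposited raw counts per gene made with htseq-count, without normalization. The htseq-count settings and annotation release are not given in the sources used here. The members and gene lists were chosen by function, with earlier results of these data known. The named genes are all 9 members, genes of the wider list called after RAM siRNA, and the 3 genes most like Odc1; Amd2, Eif5a, Eif5a2 and the near copies were added after their values were seen. Symbols were matched to 46488 gene IDs, and 0 columns belong to other samples.

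Genes with at least 1 CPM in at least 10 libraries were tested in edgeR 4.0.16 (R 4.3.3) by its quasi-likelihood test after TMM scaling over 16 libraries, with Benjamini-Hochberg adjustment over 12805 genes and a threshold of 0.05. Comparisons within a fraction or an siRNA used their 8 libraries, and the change of the polysome to input ratio all 16. The study describes transfections with RAM or control siRNA on 4 separate occasions, and the sources used here do not state that a replicate number marks an occasion. Same-numbered libraries deviated together (lowest r of any pair 0.315 in input, 0.541 in polysomes, 0.236 between fractions of control cells and 0.294 between fractions of RAM siRNA cells), so the numbers pair the samples and each fit was repeated with a replicate block. No library was a copy of another of its group (chi-square per gene of at least 5.09). Permutation tests used log2 CPM with a pseudocount of 0.5. Annotation and sequences are from GENCODE M21. Alternatives were DESeq2 1.42.0, limma-voom (limma 3.58.1), RLE scaling, no filter, all libraries in one fit, replicates 1 and 2 or 3 and 4 only, and each library left out. The fits were also run on simulated counts that had no replicate effect and the same spread in both fractions. These data differ in both, so that run does not show how the fits perform here.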

Additional observations from a re-analysis of the deposited data

Results flagged for a closer look

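In groups of 4 libraries or cultures, a value was marked where the highest or lowest lay far from the other 3 (gap over range above Dixon's critical value). Of 54 groups of the 9 genes, 5 were marked, and chance marks about 1 in 20. Odc1 in input after RAM siRNA had 864 CPM in replicate 4, against 668 to 686 in the others. Srm in control input had 61.3 CPM in replicate 4, against 53.8 to 54.7. Sms in control input had 50.8 CPM in replicate 2, against 59.8 to 61.1. Oaz2 in polysomes after RAM siRNA had 20.5 CPM in replicate 4, against 10.3 to 11.5. The polysome to input ratio of Azin1 in RAM siRNA cells was 0.670 in replicate 3, against 0.815 to 0.843. The causes were not tested, and 3 of the 5 are libraries of replicate 4.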

How the results depend on the processing

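The number of the 9 genes called in input was 1 without the replicate block and 5 with it, 2 without a filter on low counts, 2 by DESeq2, 3 with replicates 1 and 2 only, 0 with replicates 3 and 4 only, 0 with all 16 libraries in one fit, and between 0 and 2 with a library left out. Of all genes tested in input, 4.18% were lower and 3.34% higher without a filter, 7.11% and 8.33% by DESeq2, 11.6% and 10.1% with replicates 1 and 2 only, 0% in each direction with replicates 3 and 4 only, and 0.672% and 0.781% with all 16 libraries in one fit. In polysomes it was 0, and 1 with the replicate block. The block changed no call in the change of the polysome to input ratio or between fractions. Over all tested genes, the block took the calls in input from 744 lower and 914 higher to 2398 and 2641, and in polysomes from 3 and 0 to 897 and 1052, where DESeq2 called 144 and 156 and all 16 libraries in one fit 249 and 204. In input, the numbers the study reported lie close to those with the block. The call of Oaz1 in input was lost with replicates 3 and 4 only (adjusted p = 0.725) and with all 16 libraries in one fit (adjusted p = 0.730, both by edgeR's quasi-likelihood test). Polysome spread and, for Smox, few counts limit what could be seen.

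Values that changed sign, all on the log2 scale, were of genes not called. In input, Srm was at -0.029 without a filter and between -0.068 and 0.068 with a library left out, Sms between -0.097 and 0.016 with a library left out, and Smox at -0.022 with replicates 1 and 2 only. In polysomes with a library left out, Amd1 was between -0.083 and 0.222, Srm between -0.288 and 0.182, Sms between -0.146 and 0.226 and Sat1 between -0.325 and 0.127. There, replicates 3 and 4 only gave 0.073 for Srm and 0.045 for Sat1, and replicates 1 and 2 only -0.065 for Sms. For the change of the polysome to input ratio with a library left out, Odc1 was between -0.0995 and 0.241, Amd1 between -0.300 and 0.025, Srm between -0.317 and 0.153, Sms between -0.129 and 0.244, Oaz1 between -0.228 and 0.327, Oaz2 between -0.139 and 0.293 and Sat1 between -0.116 and 0.335. Srm was there at 0.013 without a filter and 0.062 with replicates 3 and 4 only, and with replicates 1 and 2 only Sms was at -0.011, Oaz1 at -0.0029 and Oaz2 at -0.086. Between fractions, Sms with replicates 1 and 2 only was at -0.031 in control and -0.041 in RAM siRNA cells, and with a library left out between -0.084 and 0.099 and between -0.097 and 0.275. The causes were not tested.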
